A study of Mus musculus with 12 samples.

Results

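The 10 genes described here break down heme, store and release the iron that this frees, or regulate that pathway: Hmox1, Hmox2, Blvra, Blvrb, Fth1, Ftl1, Slc40a1, Bach1, Nfe2l2 and Keap1. They were chosen by name, and all 10 were found among the 32498 rows with a gene name and among the 16852 genes tested. The data are bulk RNA-seq of the tongue of C57BL/6 mice, labelled as tumor and tumor-associated tissue, with 6 vehicle and 6 gallic acid (GA) libraries. Mice were 5 weeks old when purchased, and all of them, controls included, drank the carcinogen 4-nitroquinoline 1-oxide (4NQO) at 100 µg/mL for 16 weeks. From week 4, GA at 100 mg/kg or an equal volume of its vehicle (DMSO diluted in methyl cellulose and Tween-20) was given by oral gavage 5 times per week until sacrifice. The age at collection and whether each library is 1 mouse are not given in the sources used here, so p-values measure the spread between libraries. There is no group without 4NQO, so the data hold no level for these genes in untreated tongue.

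Heme oxygenases open the heme ring and release iron, carbon monoxide and biliverdin. HMOX1 is the inducible enzyme and HMOX2 the constitutive one, and biliverdin reductases turn the product into bilirubin. The iron is held in ferritin, a shell of heavy (FTH1) and light (FTL1) subunits, or leaves the cell through ferroportin (SLC40A1). NRF2 (Nfe2l2) activates Hmox1, ferritin and Blvrb genes, BACH1 represses Hmox1 until heme removes it, and KEAP1 marks NRF2 for degradation. In many tissues macrophages that take up hemoglobin through CD163 are rich in these products.

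Translation of ferritin and ferroportin is set by an iron-responsive element, a hairpin in the 5′ UTR that iron regulatory proteins bind, which a count of mRNA does not register. The elements are shown because they separate the 3 iron-handling genes from the other 7 members. They were searched in GENCODE M21 transcripts on GRCm38, the assembly that mm10 denotes, as a C, a stem of 5 bases, the loop CAGTGN with N not G (in capitals), and a second stem of 5 bases that pairs with the first, G-T pairs allowed.
Fth1: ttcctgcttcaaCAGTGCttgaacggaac
Ftl1: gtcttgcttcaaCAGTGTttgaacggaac
Slc40a1: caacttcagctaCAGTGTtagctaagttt
The Fth1 element lies at chr19:9982732-9982760 on the plus strand, the Ftl1 element at chr7:45459779-45459807 on the minus strand, and the Slc40a1 element at chr1:45925465-45925493 on the minus strand. Such a motif was present in the 5′ UTR of 21 of 21590 genes (0.0973%), and in 3 of the 10 members. The core of the antioxidant response element that NRF2 and BACH1 share, TGACNNNGC on either strand, was also searched in RefSeq promoter windows of 300 bases (GRCm38.p6, 250 before to 50 after the start). It was present in 12.4% of 32851 windows and in 2 of the 12 windows of the 8 members that matched, those of Blvra and Nfe2l2. Hmox1 and Slc40a1 had no entry among these windows and were not searched.

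Library totals recovered from the FPKM values (reads divided by exon length and library total) were 18042738 to 25192619. Values below are FPKM after scaling between libraries, called scaled FPKM. Reads on Y-linked genes were present in vehicle libraries 1 to 4 and GA library 1 and absent from the other 7. Lipf, a lipase of tongue glands, was above 100 FPKM in vehicle libraries 3 and 5 and in GA library 2, which are called gland libraries. Both features are unevenly divided between the groups, and results are given without these libraries where that changes them. The epithelial keratin Krt5 averaged 1600 scaled FPKM and the muscle actin Acta1 1674, so the libraries hold both the lining and the muscle of the tongue.

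Levels over the 12 libraries, which FPKM states per length, spanned 2 orders of magnitude. Fth1 was highest at a mean of 229.6 scaled FPKM, followed by Ftl1 (143), Nfe2l2 (84.0), Hmox1 (49.3) and Blvrb (26.0). Keap1 (12.2), Hmox2 (11.4) and Bach1 (9.63) formed a close middle group, and Blvra (5.58) and the exporter Slc40a1 (1.80) were lowest. Keap1 exceeded Hmox2 in 9 of 12 libraries and Hmox2 exceeded Bach1 in 10 of 12, so the order of these neighbours did not hold beyond their spread. Each of the 4 steps from Fth1 down to Blvrb held in 11 of 12 libraries. The ranges did not overlap between Blvrb and Keap1, between Bach1 and Blvra, or between Blvra and Slc40a1. Read depth behind a single value ran from 115 to 531 reads for Slc40a1 and from 12157 to 23969 for Fth1. The lengths that divide the reads count all annotated exon bases, 9000 for Slc40a1 and 2446 for Blvra. Blvra had 182 to 408 reads, within the range of Slc40a1, so the order of levels rests in part on these lengths.

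The members varied unequally between libraries. Slc40a1 spanned 5.87-fold between its lowest and highest library and Hmox1 3.96-fold, against 1.39-fold for both Hmox2 and Keap1. The SD of the log2 level over the 12 libraries was 0.65 for Hmox1, above that of 73.0% of all tested genes, and 0.16 for Hmox2, above that of 7.50%. Thus the inducible and the constitutive heme oxygenase stood far apart in spread as well as in level.

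**Figure D1:**
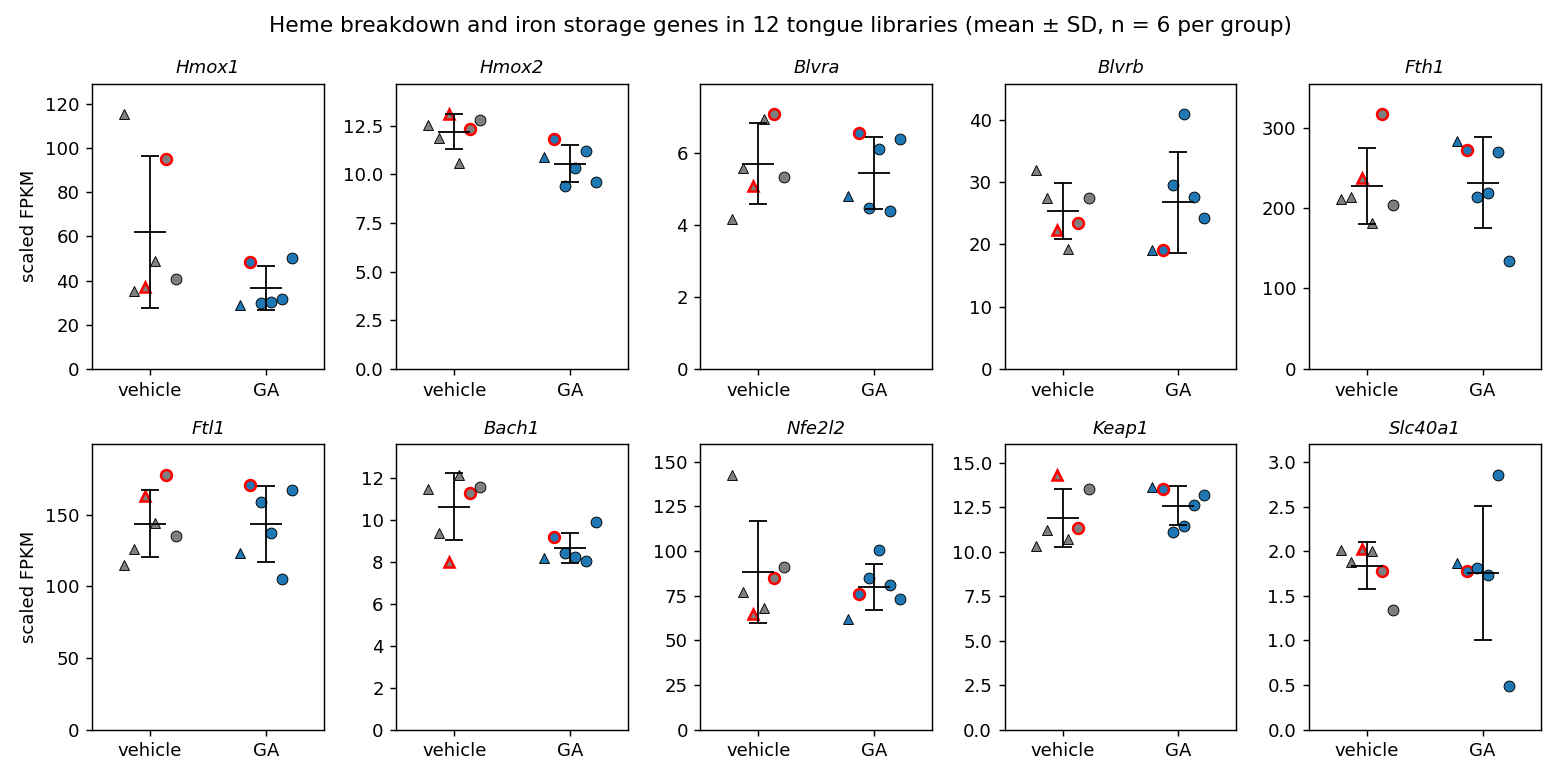
Scaled FPKM of the 10 genes in each library, on linear axes that start at 0. Each point is 1 library (grey vehicle, blue GA), triangles carry Y-linked reads, red outlines mark gland libraries, and bars give the mean and SD of 6 libraries. Vehicle libraries 1 and 5 stand out for Hmox1 (115 and 95.1), and GA library 6 for Slc40a1 (0.486).

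The main comparison asks whether GA changed this pathway in 4NQO-exposed tongue. None of the 10 members passed the limits of an adjusted p below 0.1 and a log2 fold change of 0.58 or more in size, and of all 16852 genes 0% passed (limma, smallest adjusted p 0.9996). At an unadjusted p below 0.05 were 2 of the 10 members, Hmox2 and Bach1, both lower with GA, against 2.12% of all genes (1.18% lower with GA). Of the 10 members, 7 had a lower mean log2 level with GA, as did 52.1% of all genes. In 0 members were the groups free of overlap, against 0.0771% of all genes. The median log2 fold change was -0.084 over the members and -0.010 over all genes.

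Hmox1 ranged from 35.1 through a median of 44.8 to 115 scaled FPKM with vehicle, and from 29.1 through 31.0 to 50.1 with GA. The 2 highest values, 115 and 95.1, belonged to vehicle libraries 1 and 5, whereas the other 4 vehicle libraries (35.1 to 49.0) lay within the range of the GA group. The groups averaged 62.0 ± 34.4 (vehicle) and 36.5 ± 9.93 (GA), as mean ± SD of 6 libraries. The log2 fold change was -0.63 with a standard error of 0.31 (limma adjusted p = 0.9996), and the exact permutation test (two-sided, all splits into 6 and 6) gave p = 0.0974, where 0.00216 is the smallest possible. Below the vehicle median were 4 of 6 GA libraries. Without vehicle libraries 1 and 5, left out after their values were seen, the log2 fold change was -0.17 (standard error 0.19). It was -0.42 without vehicle library 1 alone and -0.48 without vehicle library 5 alone.

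Hmox2 lay between 10.6 and 13.1 scaled FPKM with vehicle (median 12.4) and between 9.40 and 11.8 with GA (median 10.6). In all 6 GA libraries it was under the median of the vehicle group, and the groups overlapped through vehicle library 4, the lowest of its group. The log2 fold change was -0.21 with a standard error of 0.087 (exact permutation test, p = 0.0173, n = 6 per group, limma adjusted p = 0.9996). Cdip1, on the opposite strand, covers 40.2% of the exon bases of Hmox2, and whether counting used strand is not given in the sources used here, so the source of its reads is uncertain.

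The ratio of Hmox1 to Hmox2 within a library does not depend on scaling. It was 5.08 ± 2.74 in the vehicle group and 3.48 ± 0.988 in the GA group (SD, n = 6 each). The mean log2 ratio differed by -0.42 (exact permutation test, p = 0.234, n = 6 per group), with 4 of 6 GA libraries under the median of the vehicle group.

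For both biliverdin reductases the difference between the groups was smaller than its standard error. Blvra ranged from 4.18 to 7.08 scaled FPKM with vehicle (median 5.46) and from 4.38 to 6.55 with GA (median 5.47), with a log2 fold change of -0.060 (standard error 0.16). Blvrb ranged from 19.2 to 31.9 with vehicle (median 25.5) and from 19.0 to 40.9 with GA (median 25.9), with a log2 fold change of 0.047 (standard error 0.19). The groups overlapped almost wholly for both enzymes, and the highest Blvrb value was that of GA library 4.

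Both ferritin subunits had nearly the same mean in the 2 groups. Fth1 was 227 ± 47.4 scaled FPKM in the vehicle group and 232 ± 56.1 in the GA group (SD, n = 6 each), and its highest and lowest libraries were vehicle library 5 at 317 and GA library 6 at 134. Ftl1 was 143 ± 23.3 with vehicle and 144 ± 26.4 with GA. Their log2 fold changes were 0.0076 and -0.0049, with standard errors of 0.20 and 0.15 (limma). The heavy to light ratio averaged 1.59 ± 0.224 with vehicle (1.26 to 1.84) and 1.70 ± 0.644 with GA (0.803 to 2.57), so that the GA libraries held both the lowest and the highest ratio. The size of this ratio rests on the exon lengths that divide the reads, 3469 bases for Fth1 and 1340 for Ftl1. Between the groups the mean log2 ratio differed by 0.013 (exact permutation test, p = 0.970, n = 6 per group). Of the Ftl1 exon bases, 26.5% overlap another gene on the opposite strand and 8.13% on the same strand, and the pseudogene row Ftl1-ps2, a copy that may share its reads, held 2.29 to 4.92 scaled FPKM.

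Slc40a1 lay between 1.34 and 2.03 scaled FPKM with vehicle (median 1.94) and between 0.486 and 2.86 with GA (median 1.80). The GA group held both the highest library, number 5, and the lowest, number 6. The log2 fold change was -0.19 (standard error 0.31, limma adjusted p = 0.9996), and it was 0.11 without GA library 6, whose 115 reads were the fewest for any member.

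Among the regulators, the repressor Bach1 ranged from 7.99 to 12.1 scaled FPKM with vehicle (median 11.4) and from 8.04 to 9.88 with GA (median 8.31). The 6 GA libraries were all under the median of the vehicle group, yet the lowest value of all belonged to vehicle library 3. The log2 fold change of Bach1 was -0.28 with a standard error of 0.11 (exact permutation test, p = 0.0368, n = 6 per group, limma adjusted p = 0.9996). It was -0.36 without vehicle library 3, and -0.23 (standard error 0.13) without vehicle libraries 1 and 5. Its mean was lower with GA, as was that of its target Hmox1.

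Nfe2l2, the activator, ranged from 64.9 to 143 scaled FPKM with vehicle (median 81.0) and from 62.0 to 101 with GA (median 78.5). Vehicle library 1, one of those with high Hmox1, held the highest value. Its log2 fold change was -0.11 (standard error 0.18), and 0.041 without that library. Keap1 was 11.9 ± 1.63 with vehicle and 12.6 ± 1.09 with GA (log2 fold change 0.085, standard error 0.10), and an opposite-strand gene covers 10.9% of its exon bases. The Bach1 to Nfe2l2 ratio was 0.127 ± 0.0311 with vehicle and 0.111 ± 0.0212 with GA, and the mean log2 ratio differed by -0.17 (exact permutation test, p = 0.379, n = 6 per group).

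**Figure D2:**
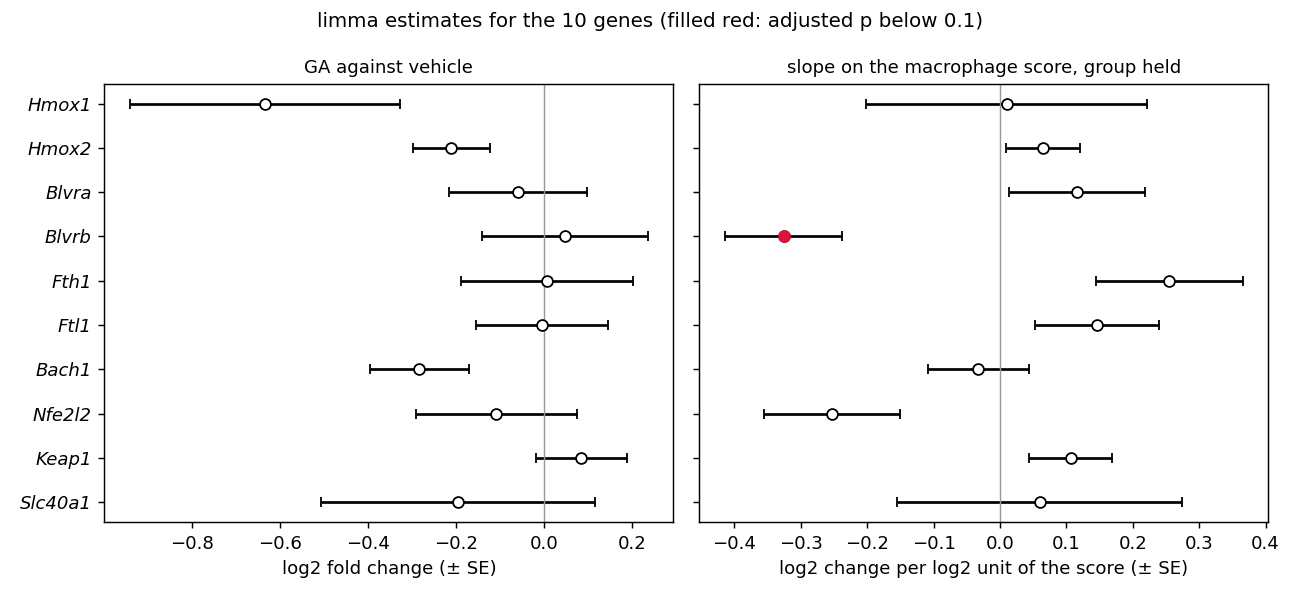
Left, log2 fold change with GA of each gene, with its standard error. Right, change in log2 level per log2 unit of the macrophage score with the group held. Hmox1 has the largest fold change (-0.63) with a wide error. Blvrb is the gene whose macrophage slope (-0.33) passed an adjusted p of 0.1, as did 8.76% of all genes.

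The other genes of heme and iron handling were read from 6 lists, and in each of them 0 genes passed the limits or an unadjusted p below 0.05. In heme synthesis 6 of 9 genes were higher with GA. Alad, the second enzyme of that pathway, averaged 4.93 ± 1.77 scaled FPKM with vehicle and 6.57 ± 1.62 with GA (log2 fold change 0.46, standard error 0.25), and Alas2, the erythroid form of the first enzyme, was at 0.45 (standard error 0.35). In the list for uptake and export of heme and hemoglobin 4 of 9 genes were higher. For haptoglobin (Hp), which binds free hemoglobin, the log2 fold change was -1.71 with a standard error of 1.41, and it exceeded 11 scaled FPKM only in the 3 gland libraries and vehicle library 4, and the heme exporter Abcg2 was at -0.29 (standard error 0.25).

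Iron uptake and release was evenly divided, with 6 of 12 genes on either side. The log2 fold change of Heph, the ferroxidase that works with ferroportin, was -0.34 (standard error 0.23). Lcn2, which carries siderophore-bound iron and is also a neutrophil product, was at -0.92 (standard error 0.66). Of 8 tested genes for iron sensing and ferritin turnover 6 were lower, among them the ferritin receptor Ncoa4 (-0.11, standard error 0.10) and the mitochondrial iron importer Slc25a37 (-0.21, standard error 0.19).

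Of the 8 small MAF partners and NRF2 regulators 7 were higher with GA. Maff was the exception, at -0.29 (standard error 0.18), and Sqstm1, the adaptor that sequesters KEAP1, was at 0.25 (standard error 0.18). Of the 12 NRF2 target enzymes 11 were lower, with a median log2 fold change of -0.11. Abcc1, an exporter of glutathione conjugates, was at -0.25 (standard error 0.14) and Gclm, a subunit of the enzyme that begins glutathione synthesis, at -0.32 (standard error 0.23). The mean log2 level of that list was 5.35 ± 0.137 with vehicle and 5.25 ± 0.299 with GA, so the difference of -0.11 was smaller than the SD of either group.

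Because macrophages are a known site of heme breakdown, the members were set against the mean log2 level of 16 macrophage genes, called the macrophage score. Summed scaled FPKM of the list ranged from 37.3 to 150 with vehicle (median 69.5) and from 29.9 to 150 with GA (median 49.5). The score did not separate the groups (0.98 ± 0.74 and 0.76 ± 0.89, exact permutation test, p = 0.643, n = 6 per group), and 12 of its 16 genes were lower with GA. Its most abundant genes, the complement components C1qb and C1qa and the lysosomal Cd68, averaged 20.8, 20.5 and 9.74 scaled FPKM. Cd163 averaged 1.25 with vehicle (0.399 to 2.10) and 1.63 with GA (0.461 to 3.23), with a log2 fold change of 0.37 (standard error 0.50). Of 6 markers of the heme-recycling macrophages of spleen, Spic reached at most 0.119 scaled FPKM and Cd5l 0.107, and Marco was above 0 in vehicle library 4 (0.0666) and vehicle library 5 (0.646) only. The other 3, which are not specific to those cells, were higher. Vcam1 lay between 0.0944 and 1.04, Timd4 between 0.0598 and 0.554 and Siglec1 between 0 and 1.11, with the maximum of Timd4 and of Siglec1 in GA library 1, where Cd163 was also highest. In bulk tissue, fewer cells of a type and less RNA per cell cannot be told apart.

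The score moved with other tissue components. Over the 12 libraries its Pearson r was 0.63 with the neutrophil score (permutation p = 0.0251, rho 0.80 with p = 0.00296), 0.60 with the skeletal muscle score (p = 0.0393, rho 0.54 with p = 0.0737) and -0.65 with the squamous epithelium score (p = 0.0210, rho -0.60 with p = 0.0429). Cd163 had an r of 0.85 with muscle (permutation p = 0.00038, rho 0.85 with p = 0.00076). The neutrophil score had an r of 0.03 with muscle (permutation p = 0.936, rho 0.15 with p = 0.634) and of 0.09 with Cd163 (permutation p = 0.779, rho 0.37 with p = 0.236). The macrophage score had an r of -0.71 with the mean log2 level of the NRF2 target enzymes (permutation p = 0.00808, rho -0.64 with p = 0.0283). Except for a fit of the macrophage and muscle scores together, the slopes below were fitted on 1 score at a time. In all, 70 relations of a member to 7 measures were computed, of which 18 had an unadjusted permutation p below 0.05. In the limma slopes on single measures, 6.2% (red blood cell) to 34.9% (skeletal muscle) of all genes had an unadjusted p below 0.05. The squamous and NRF2 enzyme scores among the 7 measures were added after the data were seen.

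The relation of Hmox1 to the macrophage score was close to 0 over all libraries. Pearson's r was 0.09 (permutation test, p = 0.793) and Spearman's rho 0.13 (p = 0.683, n = 12). The 2 libraries with the highest Hmox1 lay at opposite ends of the score, vehicle library 5 at its maximum and vehicle library 1 near its minimum. The coefficient was 0.80 in the 7 libraries without Y-linked reads and -0.38 in the 9 without gland tissue, so its sign depended on which libraries were used. With Cd163 alone it was -0.40 (permutation p = 0.201, rho -0.39 with p = 0.210), and there too the sign depended on the libraries, at 0.24 without Y-linked libraries, -0.73 without gland libraries and -0.03 without vehicle libraries 1 and 4, the farthest from the median.

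With the group held, the limma slope of Hmox1 on the macrophage score was 0.010 (standard error 0.21). On the skeletal muscle score it was -0.38 per log2 unit (standard error 0.14, adjusted p = 0.0842), where 29% of all genes passed an adjusted p of 0.1. The r of Hmox1 with muscle was -0.62 (permutation p = 0.0333, rho -0.52 with p = 0.0842), and it was -0.28 without vehicle library 1 and GA library 6, the libraries farthest from the median, -0.22 without Y-linked libraries and -0.89 without gland libraries. When both scores entered 1 fit, the macrophage slope of Hmox1 was 0.50 (standard error 0.17) over the 12 libraries. Its limma adjusted p was 0.227 and its unadjusted p 0.0126, and 13.6% of all genes had an unadjusted p below 0.05.

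Of the 10 members, 1 had a slope on the macrophage score that passed the test, Blvrb, a share close to the 8.76% of all genes that passed. Blvrb fell by 0.33 on the log2 scale per unit of the score (standard error 0.088, limma adjusted p = 0.0660). The highest Blvrb value, 40.9 in GA library 4, came with the lowest score. The 2 libraries with the lowest Blvrb, GA libraries 1 and 2, came with scores near the top. Vehicle library 4 had nearly as low a Blvrb value (19.2) at a score of 0.67, and vehicle library 5, with the top score of 2.07, had 23.5. Pearson's r was -0.77 (permutation test, p = 0.00338) and Spearman's rho -0.83 (p = 0.00103, n = 12). It was -0.49 within vehicle, -0.92 within GA, -0.83 without Y-linked libraries, -0.79 without gland libraries, and -0.79 without the 2 libraries farthest from the median score. The slope did not pass without Y-linked libraries (-0.37, limma adjusted p = 0.227), where 0% of all genes passed. Nor did it without gland libraries (-0.45, adjusted p = 0.357, 0.012% of all genes). With the muscle score held it did not pass either (-0.39, adjusted p = 0.167, 0.99% of all genes). The adjusted p also rose above 0.1 when any one of vehicle library 1 or GA libraries 1 to 4 was left out, with slopes between -0.33 and -0.25. In those fits 1.49% (without GA library 2) to 10.4% (without GA library 1) of all genes passed.

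Fth1 followed Cd163. The slope of Fth1 on the log2 level of Cd163 with the group held was 0.30 (standard error 0.073, limma adjusted p = 0.0301). Pearson's r was 0.80 (permutation test, p = 0.00087) and Spearman's rho 0.85 (p = 0.00117, n = 12), and r was 0.69 within vehicle and 0.95 within GA. It was 0.96 without Y-linked libraries, 0.79 without gland libraries, and 0.89 without vehicle libraries 1 and 4, the farthest from the median. Over the 12 libraries, 5.93% of all genes had an r with Cd163 as large in either direction. On the 16-gene macrophage score the slope of Fth1 was 0.25 (standard error 0.11, adjusted p = 0.195). With the skeletal muscle score, itself at r = 0.85 with Cd163, Fth1 had an r of 0.55 (permutation p = 0.0648, rho 0.59 with p = 0.0459). That r was 0.23 within vehicle and 0.94 within GA. Cd163 and muscle were not entered in 1 fit, so their relations to Fth1 were not separated. Ftl1, the partner subunit, had an r of 0.02 with Cd163 (permutation p = 0.962, rho 0.15 with p = 0.636).

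**Figure D3:**
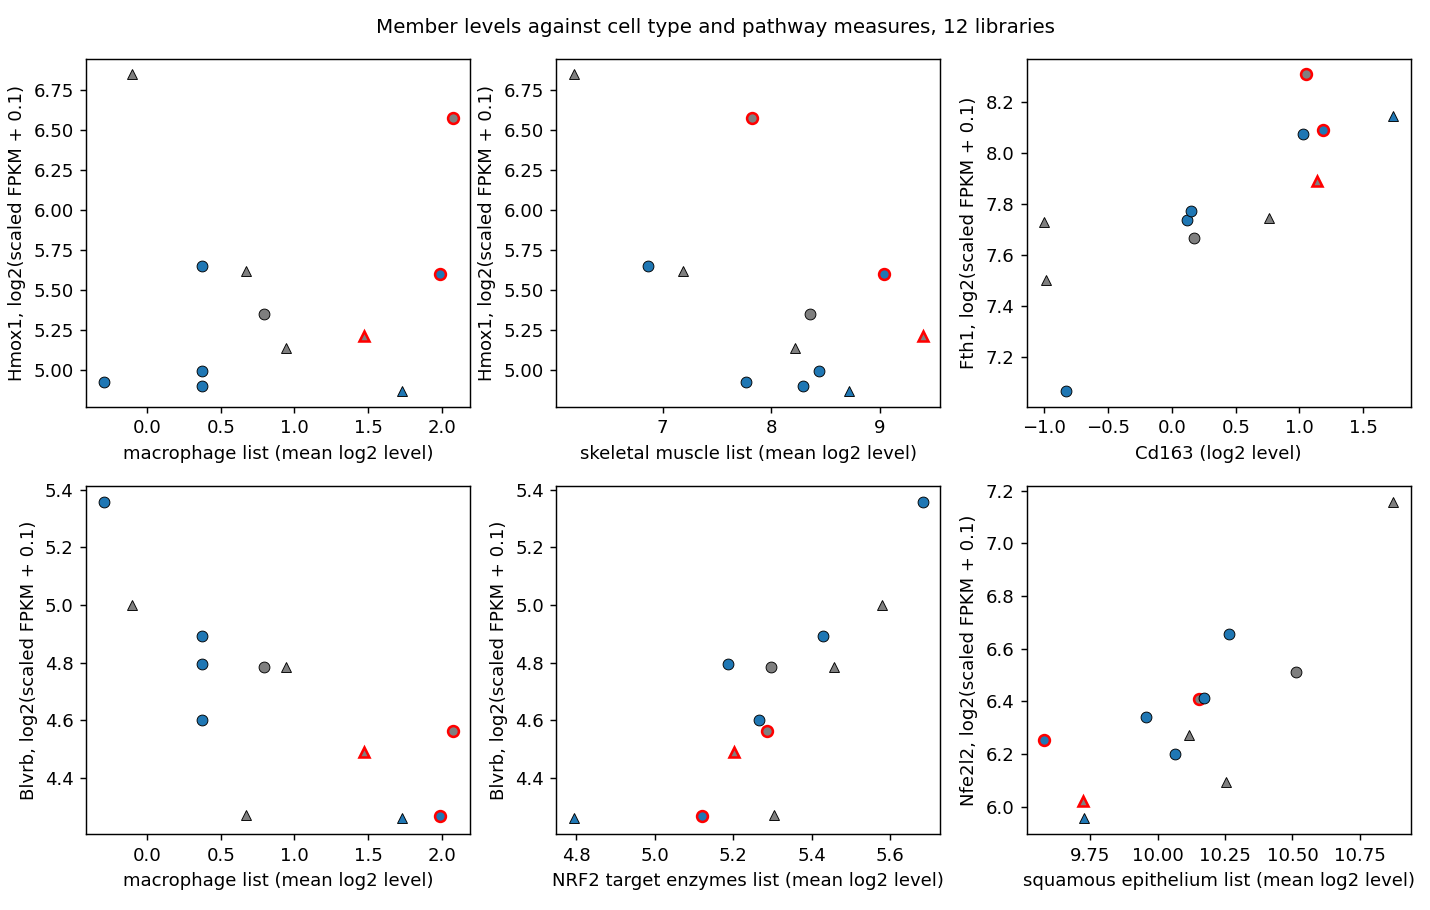
Log2 level of 4 of the genes against list scores or Cd163 in the 12 libraries (grey vehicle, blue GA, triangles with Y-linked reads, red outlines gland libraries). Hmox1 has no trend with the macrophage score (r = 0.09), whereas Fth1 rises with Cd163 (r = 0.80), Blvrb falls with the macrophage score (r = -0.77) and rises with the NRF2 target enzymes (r = 0.82), and Nfe2l2 rises with the squamous score (r = 0.82).

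Blvra and Ftl1 were correlated with the neutrophil score, but neither slope passed the test. Blvra had an r of 0.78 with the neutrophil score (permutation test, p = 0.00094, rho 0.81 with p = 0.00215, n = 12), 0.92 within vehicle and 0.62 within GA. It was 0.63 without vehicle libraries 4 and 5, the farthest from the median. The limma slope of Blvra was 0.16 (standard error 0.046, adjusted p = 0.132) and did not pass, where 2.77% of all genes did. For Ftl1 r was 0.60 (permutation p = 0.0385, rho 0.67 with p = 0.0196), and it was 0.32 without gland libraries. An r as large in either direction was present in 11% of all genes, and the limma slope of Ftl1 was 0.12 (standard error 0.052, adjusted p = 0.343).

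No member had a slope on the red blood cell score at an unadjusted p below 0.05, against 6.2% of all genes. The globin genes Hba-a1, Hba-a2 and Hbb-bt, whose highly similar sequences make their division uncertain, averaged 26.2 to 54.6 scaled FPKM. The r of Hmox1 with that score was -0.36 (permutation test, p = 0.252, rho -0.40 with p = 0.200, n = 12).

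Blvrb, Nfe2l2 and Keap1 were each correlated with the score of the NRF2 target enzymes, a list of 12 genes that holds none of the members. Blvrb had an r of 0.82 with that score (permutation test, p = 0.00109, rho 0.74 with p = 0.00761), and only 0.255% of all genes had one as large in either direction. It was 0.75 within vehicle, 0.91 within GA, 0.91 without Y-linked libraries, 0.81 without gland libraries and 0.70 without GA libraries 1 and 4, the farthest from the median. Whether this relation is separate from the fall of Blvrb with the macrophage score was not tested. With the NRF2 enzyme score Nfe2l2 had an r of 0.73 (permutation p = 0.0108, rho 0.70 with p = 0.0141) and Keap1 one of -0.69 (permutation p = 0.00873, rho -0.72 with p = 0.0106). An r as large in either direction was present in 1.93% of all genes for Nfe2l2 and 3.58% for Keap1. For Hmox1 r was 0.24 (permutation p = 0.443, rho 0.13 with p = 0.683). For the ferritin genes, which are also NRF2 targets, it was -0.36 (Fth1, permutation p = 0.252, rho -0.49 with p = 0.110) and -0.06 (Ftl1, permutation p = 0.862, rho -0.17 with p = 0.604).

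With the group held, the slope on the NRF2 enzyme score was 1.30 for Blvrb (standard error 0.26), 1.03 for Nfe2l2 (0.33) and -0.46 for Keap1 (0.21). Their adjusted p-values in limma were 0.418, 0.419 and 0.434, and 0% of all genes passed, while 11.4% had an unadjusted p below 0.05. The score ran with the amount of squamous epithelium, at r = 0.69 over the libraries (permutation p = 0.0145, rho 0.83 with p = 0.00184). On the squamous score, where 21.6% of all genes passed, Nfe2l2 had a slope of 0.85 (standard error 0.18, adjusted p = 0.0228) and Blvrb one of 0.75 (standard error 0.23, adjusted p = 0.0595). The r of Nfe2l2 with the squamous score was 0.82 (permutation test, p = 0.00135, rho 0.76 with p = 0.00613, n = 12), 0.90 within vehicle and 0.71 within GA, and 0.74 without vehicle library 1 and GA library 2. That of Blvrb was 0.60 (permutation p = 0.0388, rho 0.67 with p = 0.0194). For Keap1 r with the squamous score was -0.67 (permutation p = 0.0154, rho -0.63 with p = 0.0321), and its slope was -0.31 (standard error 0.14, limma adjusted p = 0.168).

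Of the 45 pairs of members, 5 had an unadjusted permutation p below 0.05. The share over all pairs of genes was not computed, so this count cannot be called high or low. Hmox1 and Bach1, enzyme and repressor, rose and fell together (r = 0.73, permutation p = 0.00452, rho 0.69 with p = 0.0149, n = 12). That coefficient was 0.53 within vehicle and 0.93 within GA, 0.73 without Y-linked libraries, 0.72 without gland libraries, and 0.94 without vehicle libraries 4 and 6. An r as large in either direction was present with Hmox1 in 4.91% of all genes and with Bach1 in 7.04%. With the skeletal muscle score r was -0.62 for Hmox1 and -0.62 for Bach1 (permutation p = 0.0314, rho -0.65 with p = 0.0253 for Bach1). Whether the pair holds beyond tissue makeup was not tested. Blvrb and Nfe2l2 had an r of 0.73 (permutation p = 0.00692, rho 0.87 with p = 0.00059), 0.83 within vehicle and 0.91 within GA. One as large in either direction was present with Blvrb in 1.91% of all genes and with Nfe2l2 in 7.06%. Nfe2l2 and Keap1 ran in opposite directions (r = -0.57, permutation p = 0.0395, rho -0.50 with p = 0.104), and r was -0.23 without vehicle libraries 1 and 3. For that pair the shares were 22.4% (Nfe2l2) and 17.8% (Keap1). Blvra and Ftl1 had an r of 0.65 (permutation p = 0.0249, rho 0.73 with p = 0.00883), with shares of 8.02% (Blvra) and 10.3% (Ftl1).

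The 2 ferritin subunits did not follow each other, with an r of -0.09 (permutation p = 0.794, rho 0.10 with p = 0.765). That value was 0.67 within vehicle and -0.52 within GA, and -0.75 in the 9 libraries without gland tissue. Fth1 and Slc40a1, which share the iron-responsive element, had an r of 0.71 (permutation p = 0.0228), but rho was 0.20 (p = 0.546) and r was 0.02 without GA libraries 5 and 6, so the relation rested on those 2 libraries. Ftl1 and Slc40a1, which share it as well, had an r of -0.46 (permutation p = 0.125, rho -0.50 with p = 0.104).

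**Figure D4:**
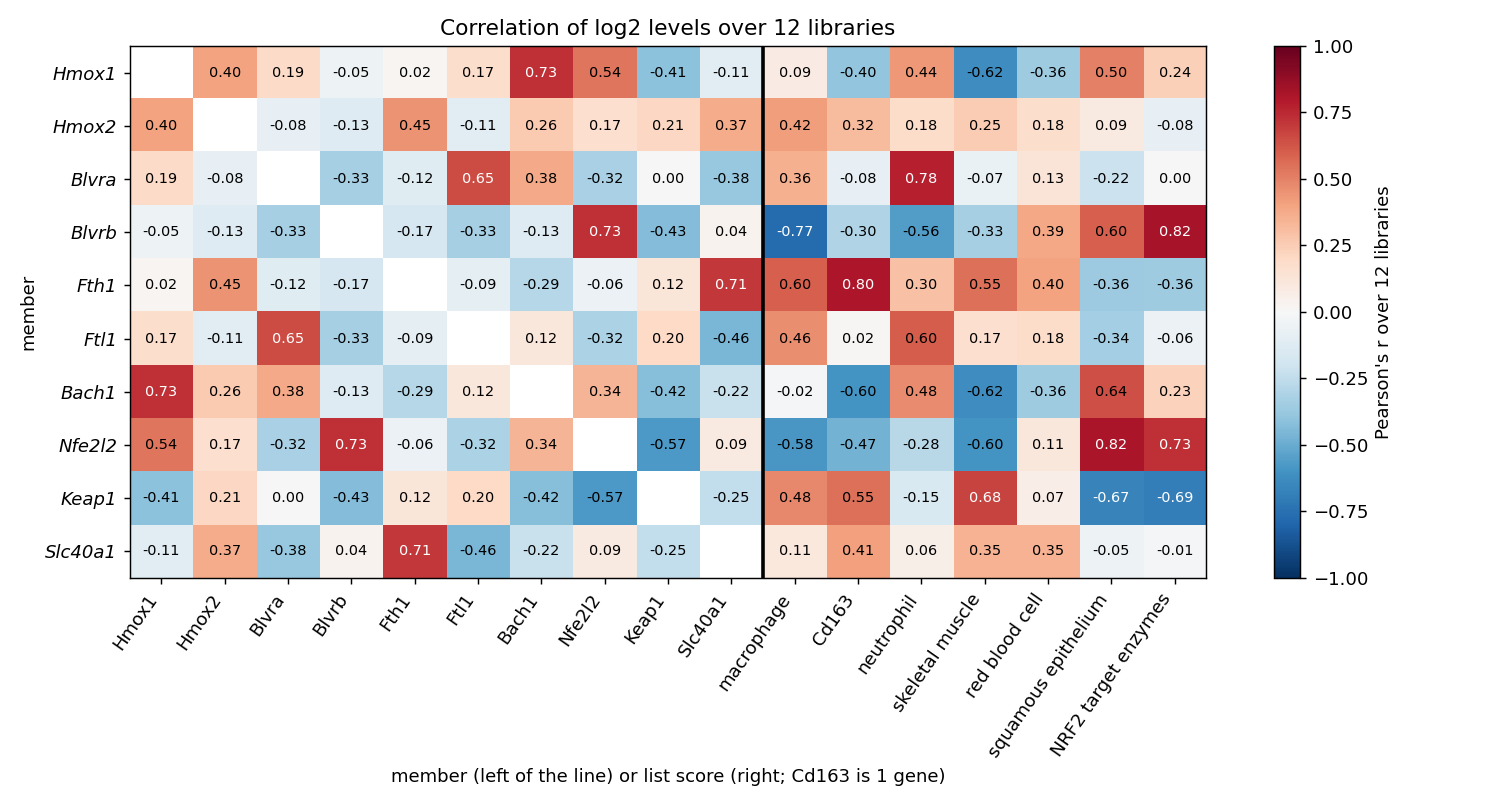
Pearson's r of log2 levels over the 12 libraries for the 45 pairs of members (left of the line) and for each member with 6 list scores and Cd163 (right). Red is positive and blue negative. Fth1 and Ftl1 are near 0 (r = -0.09), and Blvrb and Nfe2l2 share their relations to the NRF2 target enzymes (0.82 and 0.73).

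As a description, the genes most like 3 of the members were sought among the 12166 genes that averaged 1 FPKM or more, by Pearson's r of the log2 level over the 12 libraries, which also share depth and tissue makeup. For Blvrb these were Mgst1 (0.94), Ptgr1 (0.92), Pgrmc1 (0.92), Surf6 (0.91) and Gss (0.90). Mgst1 and Gss serve glutathione conjugation and synthesis, and PGRMC1 is a heme-binding membrane protein. For Hmox1 they were Adap1 (0.91), Cd164 (0.91), Vps18 (0.90), Arcn1 (0.89) and Tpd52 (0.89), of which Vps18 and Arcn1 encode proteins of vesicle traffic. For Slc40a1 they were Frat1 (0.91), Ntf3 (0.91), Lef1 (0.90), Dffa (0.89) and Stag2 (0.89). Among these, Lef1 spanned from 0.139 to 3.61 scaled FPKM, with a mean of 1.62.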

How the data were processed

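Bulk tongue RNA was sequenced in 6 vehicle and 6 GA libraries. The authors used HISAT2 (mm10) for alignment and featureCounts for gene counts of uniquely mapped reads, and deposited FPKM, 1 table per sample. Rows lacking a gene name, 22965 of 55463 (41.4%), were dropped. Between 97.2% and 98.3% of low values came out as whole reads within 0.02 reads, which gave library totals. Their precision covers counting error only. Scaling of the FPKM used an unweighted trimmed mean of log ratios (factors 0.882 to 1.09). Genes averaging 0.1 FPKM or more were fitted with limma 3.58.1 (R 4.3.3) on log2(FPKM + 0.1), which understates the change of low genes, with Benjamini-Hochberg adjustment over all genes. The study used edgeR on counts, whereas the values used here are FPKM, and edgeR was not run on the recovered reads. Slopes held the group as a term. Exact permutation tests covered all splits into 6 and 6, and correlations used 100000 permutations (scipy 1.17.1). The fits were tested on simulated data. Named beyond the members are from each pathway list the 2 with the smallest limma p, Cd163 and the 3 most abundant macrophage genes, and 5 genes most like Hmox1, Blvrb and Slc40a1. Other genes (Krt5, Acta1, Lipf, the red pulp macrophage list, globins) were named after their values were seen. Members and lists were chosen with earlier results of these data known. Alternatives covered the pseudocount, filter, scaling, limma options, covariates, replicate block and libraries left out.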

Additional observations from a re-analysis of the deposited data

Results flagged for a closer look

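Dixon's test of the highest and lowest library in each group of 6 (limit 0.625) was applied to the 10 members, 3 ratios and 7 measures, 40 groups of values in all, and marked 3 of them (7.5%), where chance marks about 1 group in 20. In the GA group Slc40a1 was far lowest in library 6, at 0.486 scaled FPKM (gap over range 0.706). In the vehicle group Slc40a1 was far lowest in library 6, at 1.34 scaled FPKM (gap over range 0.676). The neutrophil score was far highest in GA library 2, one of the gland libraries (gap over range 0.722).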

How the results depend on the processing

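Over 32 alternatives to the comparison of the groups, 0 of 10 members passed the limits in any. The fold changes of Hmox1 (-0.78 to -0.17), Hmox2 (-0.27 to -0.18) and Bach1 (-0.38 to -0.20) kept their direction throughout. limma-voom on the recovered reads called 0 of 16110 genes.

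The 2 members at an unadjusted p below 0.05 became 1 with FPKM as deposited, quantile normalization or no variance trend. They also became 1 with the sex term (presence of Y-linked reads), the neutrophil or squamous term, or the libraries without Y-linked reads. Among all genes, 1.85% (FPKM as deposited) to 5.74% (squamous term) were below that limit in these fits. There were 0 without vehicle libraries 1 and 5 (1.75% of all genes). With array weights there were 3, Hmox1, Hmox2 and Bach1 (6.06% of all genes). When single libraries were left out the count was 1 to 3, against 1.52% to 5.14% of all genes. It was 1 without vehicle library 4, 5 or 6 or GA library 3, 4 or 5, and 3 on leaving out number 2 of either group. With the replicate number as a block the count was 0, against 1.36% of all genes. Deviations of same-numbered libraries correlated between -0.37 and 0.079, which gave no sign that the numbers pair the libraries. A pairing need not appear in such correlations, so they cannot exclude it.

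Smaller fold changes changed sign. Blvra was at 0.084 with the neutrophil term. Blvrb was at -0.065, -0.024 and -0.083 with the sex, macrophage and neutrophil terms. Fth1 was at -0.058, -0.012 and -0.12 with the muscle, red blood cell and squamous terms and at -0.24 without Y-linked libraries. Ftl1 was at 0.011 with FPKM as deposited, 0.011 with upper quartile and 0.010 with quantile scaling, 0.027 and 0.10 with the macrophage and neutrophil terms, 0.071 without gland libraries and 0.00021 without vehicle libraries 1 and 5. Nfe2l2 was at 0.16 with the squamous term and 0.078 without vehicle libraries 1 and 5, Keap1 at -0.010 with the squamous term and -0.0073 without Y-linked libraries, and Slc40a1 at 0.12 with array weights. With single libraries left out, Blvra ranged from -0.14 to 0.0066, Blvrb from -0.086 to 0.13, Fth1 from -0.059 to 0.16, Ftl1 from -0.066 to 0.082, Nfe2l2 from -0.19 to 0.041 and Slc40a1 from -0.36 to 0.11.

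The heavy to light ferritin ratio differed by -0.15 (log2) without Y-linked libraries and ranged from -0.13 to 0.21 without single libraries. Those of Hmox1 to Hmox2 (-0.56 to -0.22) and Bach1 to Nfe2l2 (-0.30 to -0.071) kept their direction without single libraries. With sign flips over the replicate block, no ratio passed (exact p at least 0.0974 over all alternatives).

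The 1 member called on the macrophage score, Blvrb, was not called on Cd163 (adjusted p = 0.465) or muscle (adjusted p = 0.406), where the 1 member called was Fth1 and Hmox1, respectively. The count became 0 with the neutrophil or red blood cell score in its place. It was also 0 with both macrophage and muscle scores, FPKM as deposited, the replicate block, no Y-linked libraries or no gland libraries. Of all genes, 0% (no Y-linked libraries) to 6.18% (FPKM as deposited) passed in these fits. Without single libraries the count was 0 to 1, and 1.49% to 11.2% of all genes passed. Slopes that changed sign were those of Hmox1 (-0.21 on Cd163, -0.38 on muscle, -0.21 on red blood cells, -0.042 with the replicate block, -0.44 without gland libraries), Hmox2 (-0.0073 on neutrophils), Blvra (-0.017 on Cd163, -0.013 on muscle), Blvrb (0.13 on red blood cells), Ftl1 (-0.027 without gland libraries), Bach1 (0.048 on neutrophils, 0.11 with muscle held, 0.010 with FPKM as deposited, 0.0091 with the replicate block, 0.040 without Y-linked libraries), Nfe2l2 (0.041 on red blood cells), Keap1 (-0.0074 on neutrophils) and Slc40a1 (-0.20 with muscle held, -0.080 with the replicate block). Without single libraries the Hmox1 slope ranged from -0.18 to 0.27, that of Bach1 from -0.070 to 0.0022 and that of Slc40a1 from -0.045 to 0.12. The causes of these changes were not tested. Slc40a1 had 115 to 531 reads per library.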
